A study of Mus musculus with 42 samples.

Results

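Memory Th1 cells were set against memory Th2 cells, the lineage comparison at the last stage of a series that followed mouse CD4+ T cells from naive through effector and rested cells to memory. The samples were taken by their titles, M-Th1 against M-Th2 with numbers 1 to 3, and same-numbered samples were paired. They came to 6 of the 21 samples of the series, and 12 of its 42 arrays, since each sample was read on an array a and an array b. Both memory groups began as AND T cell receptor and GFP transgenic CD4+ T cells, whose receptor sees a pigeon cytochrome C peptide on I-Ek. Memory Th1 cells were stimulated for 4 days with antigen presenting cells under Th1 conditions and memory Th2 cells for the same time under Th2 conditions. Both were then cultured for 3 days without those cells and moved into mice that had been thymectomised, lethally irradiated and given bone marrow depleted of T cells. They were recovered by flow sorting after 4 to 12 weeks, and no age of the mice is given in the labels used here. The effector groups, used for comparison, were taken straight after the stimulation, and the rested groups after the culture without antigen presenting cells. The labels do not say whether the numbered samples came from separate mice, transfers or sorts. Every p-value therefore measures a spread between numbered samples, which may be technical. In the main fit that spread was pooled over the effector, rested and memory pairs. The source field names the thymus although the protocol describes other material, and the descriptions of the memory Th2 samples begin with RM where the titles begin with M. The titles were followed.

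Th1 and Th2 cells are the classical helper lineages of CD4+ T cells. Th1 cells depend on the transcription factor T-bet, make interferon gamma and act against intracellular microbes, while Th2 cells depend on GATA3, make interleukins 4, 5 and 13 and act against worms and in allergy. Memory cells are the long-lived survivors of such a response, small and mostly resting, and they keep the ability to make their lineage's cytokines quickly when they meet antigen again. Ifng, Il4, Tbx21 and Gata3, which define the lineages, were not analysed here.

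Each array carried 9600 spots of 4992 reporters, hybridised with cDNA of 1 sample labelled with 33P. Levels are given as log2(intensity + 1) after quantile normalisation. On this scale the median reporter of the series stood at 3.13, a dim reporter is compressed, and a difference of 1 stands for a doubling or more of the intensity behind it. In the memory arrays the median intensity was 7.6 to 9.19, and 26 to 378 spots were listed at 0. Memory Th1 samples correlated with each other at 0.893 to 0.912 and memory Th2 samples at 0.902 to 0.91, whereas the Th1 and Th2 samples of 1 number correlated at 0.961 to 0.98. Deviations from the group mean were shared within each pair, with correlations of 0.807, 0.818 and 0.806. The fit used the pair as a block, following the sample numbers. Same-numbered samples of all groups share a spot pattern, so these correlations do not show that the samples of a pair share an origin. The deposited values also held a stronger tie. In each pair the ratio of Th1 to Th2 intensity was the same, to within 0.01 on the log2 scale, on arrays a and b for 99.5% to 100% of the spots. Arrays a and b and repeat spots therefore added nothing to the replication of the lineage difference, which rests on 3 ratios per reporter. Of the CD4 T cell markers, only Cd247, a chain of the T cell receptor complex, was measured. It was dim, at 0.99, 2.02 and 2.28 in memory Th1 samples and 1.71, 1.91 and 2.10 in memory Th2 samples, so the labelled cell type could not be checked against its defining markers.

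Of the 4992 reporters, 189 passed the test between memory Th1 and memory Th2 cells (limma, Benjamini-Hochberg adjusted p under 0.05). This was 3.79% of those tested, with 82 higher in Th1 (1.64%) and 107 lower in Th1 (2.14%). Counted as genes, with the brightest reporter for each, 141 of 3230 were called (4.37%), 67 higher (2.07%) and 74 lower (2.29%) in memory Th1 cells. Most differences were small. The median size among the 141 called genes was 0.70 on the log2 scale, 28 exceeded 1, and 19 of those 28 were lower in memory Th1 cells. The 3 memory Th1 samples lay wholly above or below the 3 memory Th2 samples for 86 of the 189 called reporters, and for 5.57% of all reporters. All 3 pairs pointed 1 way for 48.9% of all reporters. The higher calls came mostly from brighter reporters. Of all 3230 genes, 1889 had a mean above the median reporter in at least 1 memory group. Of the 94 called genes that did, 59 were higher and 35 lower in memory Th1 cells. Of the remaining called genes 8 were higher and 39 lower.

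Those counts rest on the pairing and on a spread shared with the effector and rested pairs. With all 7 groups, naive cells included, and no pairing, 10 reporters passed, all of them among the 189, 2 higher and 8 lower in memory Th1 cells. Dnajc15, Hipk1, Xpo4, Prkci, S100a9, Lyz2, Ltf and Cdt1 were the named genes among them, and the other 2 were unnamed here. With the 6 memory samples alone, limma called 0 reporters in the paired fit, in which 901 had an unadjusted p under 0.05 and the smallest adjusted p was 0.169. Leaving out the memory pairs in turn gave 53 calls without pair 1, 247 without pair 2 and 97 without pair 3. In all 3 of those fits 26 genes were called, 7 of them higher and 19 lower in memory Th1 cells. The split between directions depended on the settings. Higher calls were 43.4% of the total after quantile normalisation, 61.1% after median centring (292 higher, 186 lower) and 75.3% for the plain log2 ratio (393 higher, 129 lower). An intensity trend with a robust prior gave 483 higher and 200 lower, and the filter on dim reporters 123 higher and 76 lower. The median difference of all reporters was 0.05 after quantile normalisation and -0.06 after median centring, and for the top quartile of reporters by level it was 0.20 after median centring.

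**Figure D1:**
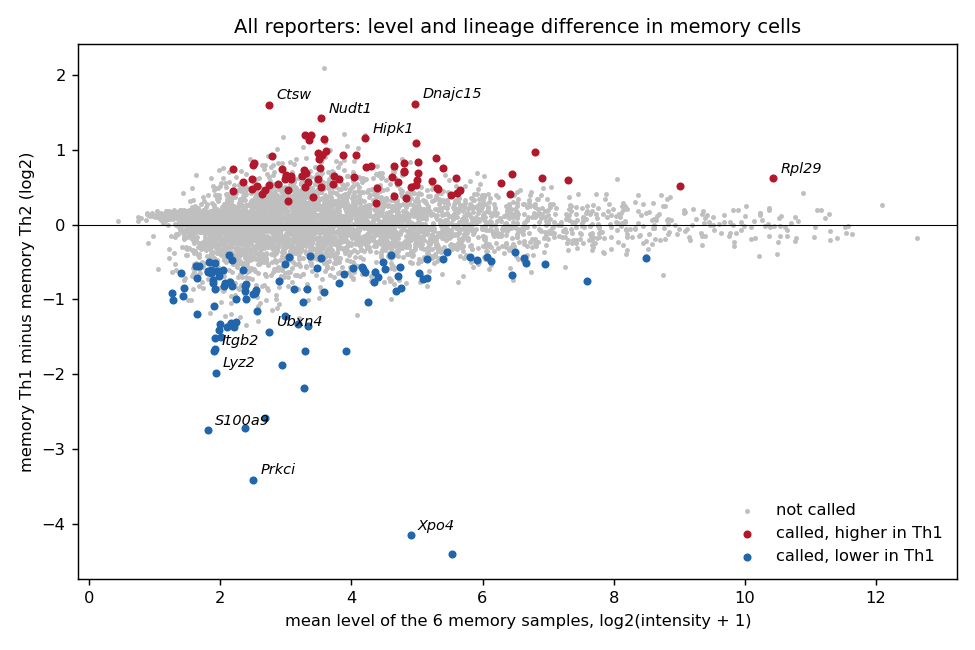
Difference between memory Th1 and memory Th2 cells (log2, vertical axis) against the mean level of the 6 memory samples (log2(intensity + 1), horizontal axis), with 1 point per reporter. Of 4992 points, the 82 red ones were called higher and the 107 blue ones lower in Th1, and the points with the largest falls, among them Xpo4, Prkci and S100a9, lie at low to middle levels.

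Dnajc15 was the named gene with the largest rise in memory Th1 cells. It encodes a J-domain protein of the inner mitochondrial membrane, also called MCJ, known in mouse T cells as a brake on complex I of the respiratory chain. Its level was 5.16, 6.47 and 5.71 in the memory Th1 samples and 3.71, 4.40 and 4.36 in the memory Th2 samples. All Th1 samples lay above all Th2 samples. The difference was 1.62 ± 0.15 (SE), or 3.08-fold (adjusted p = 0.00287). Dnajc15 kept its call without each pair in turn and without the pairing over 7 groups. On the 6 memory samples alone it was not called (limma, adjusted p = 0.169 paired and 0.999 unpaired). Hipk1, a nuclear kinase that phosphorylates homeodomain transcription factors, stood at 5.18, 4.74 and 4.43 in memory Th1 and 3.65, 3.76 and 3.47 in memory Th2 samples. Its groups did not overlap either, and the difference was 1.16 ± 0.15 (adjusted p = 0.00884). The reporters of these genes are numbered 3212 and 3210. The reporter between them, for Mphosph8, was also higher in memory Th1 cells by 0.56 (adjusted p = 0.0153), as was Usp25, at 3235, by 0.72 (adjusted p = 0.0176). Over all reporters the differences correlated at 0.191 for neighbouring numbers, 0.125 at a spacing of 2 and 0.155 at a spacing of 23, against a median of 0.00413 at spacings of 31 to 200. Whether signal was shared between such spots was not tested.

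**Figure D2:**
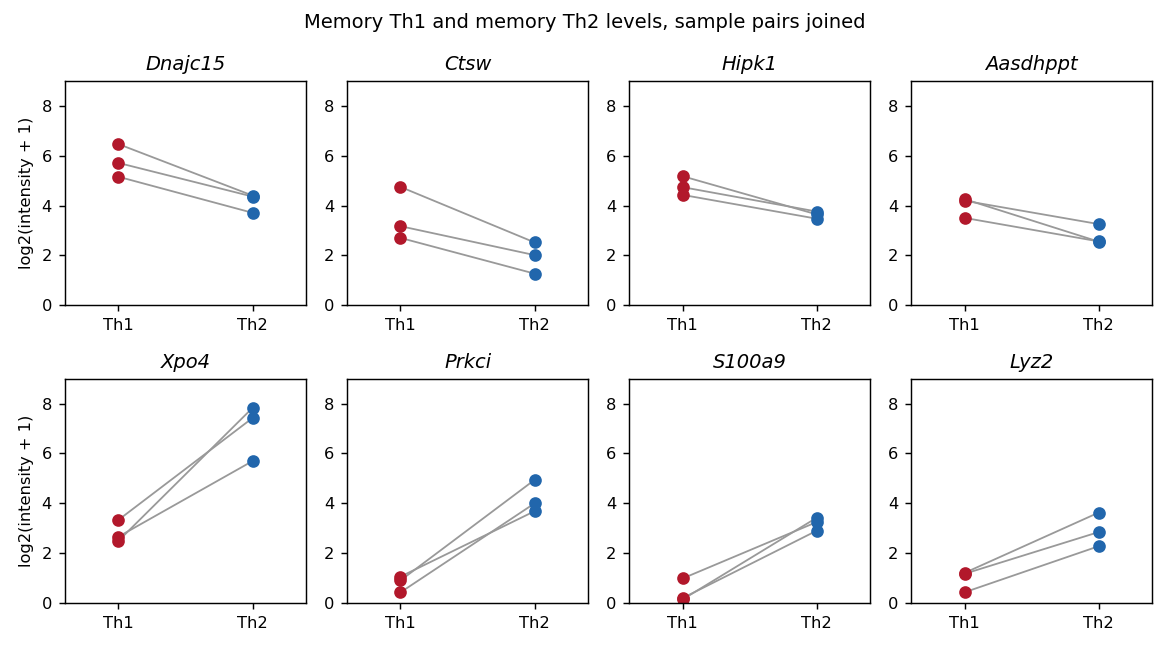
Levels (log2(intensity + 1)) of 8 genes in the 3 memory Th1 samples (left, red) and the 3 memory Th2 samples (right, blue) of each panel, with grey lines joining samples of 1 number. In each panel all lines run the same way and the groups do not overlap, with Dnajc15, Ctsw, Hipk1 and Aasdhppt higher and Xpo4, Prkci, S100a9 and Lyz2 lower in Th1.

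Ctsw, Nudt1, Gstp1 and Cks2 also rose in memory Th1 cells by more than 1 on the log2 scale. Ctsw encodes cathepsin W, a cysteine protease best known from CD8 T and NK cells. It stood at 2.70, 4.75 and 3.17 in memory Th1 and 1.27, 2.52 and 2.01 in memory Th2 samples, a difference of 1.61 ± 0.35 (adjusted p = 0.0493). The groups did not overlap, but the call was lost without any 1 pair (adjusted p = 0.152 without pair 1, 0.14 without pair 2 and 0.0904 without pair 3) and held in 5 of 15 alternatives. Nudt1, which hydrolyses oxidised purine nucleotides before they enter DNA, had levels of 4.21, 4.29 and 4.25 in memory Th1 and 2.01, 3.30 and 3.17 in memory Th2 samples. The Th1 samples were nearly alike and Th2 sample 1 was the lowest, giving 1.42 ± 0.26 (adjusted p = 0.0269), with adjusted p = 0.0939 without pair 1 and 0.0672 without pair 3. Gstp1, a glutathione S-transferase, was higher in memory Th1 cells by 1.25, 1.16 and 1.21 in the 3 pairs (fitted 1.21 ± 0.18, adjusted p = 0.0142). Its pairs were close to each other, yet with fewer pairs the adjusted p was 0.0837 without pair 1 and 0.0626 without pair 3. Cks2, a small protein that binds cyclin-dependent kinases, rose by 1.10 ± 0.17 (adjusted p = 0.0156), with no overlap between the groups. Its adjusted p was 0.0945 without pair 1 and 0.0508 without pair 3.

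Of the remaining genes with the largest rises, Aasdhppt and Farsb were called without each pair in turn. Aasdhppt, which attaches the phosphopantetheine arm to carrier proteins, was at 4.19, 4.26 and 3.51 in memory Th1 and 3.26, 2.55 and 2.56 in memory Th2 samples. The groups did not overlap, and the difference was 1.20 ± 0.16 (adjusted p = 0.012). Another, dim reporter of Aasdhppt differed by only 0.09 (adjusted p = 0.293). Farsb, the beta subunit of phenylalanyl-tRNA synthetase, rose by 0.96 ± 0.11 (adjusted p = 0.00791), with pair differences of 0.84, 0.81 and 1.22, although its groups overlapped. Limk2, a kinase that acts on the actin regulator cofilin, rose by 1.15, and Zranb2, a zinc-finger protein of the splicing machinery, by 1.13. Anxa7, a calcium-dependent membrane-binding annexin, and Ewsr1, an RNA-binding protein, both rose by 0.98. The groups of Limk2, Zranb2 and Ewsr1 overlapped, and those of Anxa7 did not. These 4 lost their call without pair 1, where the adjusted p was 0.123 for Limk2, 0.122 for Zranb2, 0.089 for Anxa7 and 0.088 for Ewsr1. Without pair 2 the adjusted p was 0.126 for Zranb2 and 0.059 for Anxa7, and without pair 3 it was 0.102 for Limk2, 0.102 for Zranb2 and 0.0841 for Ewsr1.

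The largest fall in memory Th1 cells among named genes was that of Xpo4, on chromosome 14, which encodes exportin 4, a nuclear transport receptor. Its level was 2.49, 2.66 and 3.33 in memory Th1 samples and 7.83, 5.69 and 7.42 in memory Th2 samples, and the groups did not overlap. The difference was -4.16 ± 0.37 (adjusted p = 0.00287), or 17.9-fold on this scale. It held without each pair in turn and without the pairing over 7 groups. On the 6 memory samples alone Xpo4 was not called (limma, adjusted p = 0.169 paired and 0.153 unpaired). The difference ranged from -4.72 to -3.14 in the 15 alternatives. Prkci encodes protein kinase C iota, an atypical kinase of cell polarity. It was at 0.42, 1.05 and 0.90 in memory Th1 and 4.00, 3.68 and 4.94 in memory Th2 samples, a difference of -3.41 ± 0.22 (adjusted p = 0.000683). S100a9, a subunit of calprotectin that neutrophils and monocytes hold in large amounts, was at 0.19, 0.98 and 0.14 in memory Th1 and 2.90, 3.25 and 3.42 in memory Th2 samples. Its difference was -2.75 ± 0.28 (adjusted p = 0.00446), and the groups of both genes were well apart.

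Prkci and S100a9 were close to 0 in the memory Th1 samples, so their size depended on the scale. As a plain log2 ratio of intensities Prkci differed by -5.03 and S100a9 by -5.34, while the lowest sizes among the alternatives were -1.46 for Prkci and -0.96 for S100a9. Both kept their call in 13 of 15 alternatives. Their reporters are numbered 2283 and 2260, a spacing of 23. The reporters beside S100a9 also fell in memory Th1 cells. The unnamed reporter 2259 fell by 1.69 (adjusted p = 0.000274), that of Ifngr2, at 2261, by 0.65 (adjusted p = 0.0176) and that of Car8, at 2262, by 0.50 (adjusted p = 0.0135). Among all 189 called reporters, 24 (12.7%) had a neighbour by number that was called in the same direction. Over all 4992 reporters 1.64% were called higher and 2.14% lower, and the share of them with such a neighbour was not computed. The part that neighbouring spots had in these values was not tested.

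Promoter sequences are shown for Prkci and S100a9, which were both lower in memory Th1 than in memory Th2 cells, and for Dnajc15, which was higher. They come from RefSeq on the build GRCm38.p6, cover 250 bases before and 50 after the annotated start, and are written along the gene. Capitals mark a match to NGATAA on either strand, the core letters bound by GATA factors. The letters GGTGTG, found in T-box sites, were searched on both strands and matched none of these windows. The windows of Hipk1, which are not printed, held 1 match to GGTGTG in all. The letters NGATAA were present in 25.3% of 32851 promoters of this length and GGTGTG in 19.0%, and neither motif contains the other. The Dnajc15 window is chr14:77874868-77875167 on the minus strand, that of Prkci is chr3:30995521-30995820 on the plus strand, and that of S100a9 is chr3:90695672-90695971 on the minus strand.
Dnajc15: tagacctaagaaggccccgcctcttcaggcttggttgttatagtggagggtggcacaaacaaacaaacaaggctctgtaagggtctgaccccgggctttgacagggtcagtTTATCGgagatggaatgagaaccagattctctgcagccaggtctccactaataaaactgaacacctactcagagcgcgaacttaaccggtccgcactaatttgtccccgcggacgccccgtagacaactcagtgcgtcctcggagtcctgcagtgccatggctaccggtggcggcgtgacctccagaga
Prkci: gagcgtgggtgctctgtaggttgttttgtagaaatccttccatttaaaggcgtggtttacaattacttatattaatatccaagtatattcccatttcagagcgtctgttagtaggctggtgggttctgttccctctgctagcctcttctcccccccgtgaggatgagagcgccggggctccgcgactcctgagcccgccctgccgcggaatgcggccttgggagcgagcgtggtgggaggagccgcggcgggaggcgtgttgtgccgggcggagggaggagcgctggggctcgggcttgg
S100a9: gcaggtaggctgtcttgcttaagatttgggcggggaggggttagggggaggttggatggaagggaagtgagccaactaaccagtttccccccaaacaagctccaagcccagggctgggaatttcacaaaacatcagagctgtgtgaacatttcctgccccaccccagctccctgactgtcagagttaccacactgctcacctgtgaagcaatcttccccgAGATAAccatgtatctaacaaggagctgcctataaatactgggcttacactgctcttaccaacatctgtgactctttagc
Dnajc15 and S100a9 held 1 match to NGATAA each and Prkci held none, which says only what letters these windows contain. The count of CG dinucleotides was 16 for Dnajc15, 22 for Prkci and 2 for S100a9, against a median of 7 over all promoters.

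Lyz2, Ltf and Hdc, dim genes known from granulocytes, macrophages or mast cells, were lower in memory Th1 cells. Lyz2, the lysozyme of macrophages and neutrophils, was at 0.43, 1.17 and 1.21 in memory Th1 and 2.28, 2.85 and 3.63 in memory Th2 samples. The groups did not overlap, and the difference was -1.98 ± 0.14 (adjusted p = 0.001), present without each pair and without the pairing. Ltf, the iron-binding lactoferrin of neutrophil granules, was at 1.03, 1.71 and 1.51 in memory Th1 and 2.91, 2.65 and 2.79 in memory Th2 samples, a difference of -1.37 ± 0.19 (adjusted p = 0.012). Hdc, which makes histamine and was named after its value was seen, fell by 0.77 ± 0.07 (adjusted p = 0.00287). Most measured members of the marker lists did not pass. Of 5 granulocyte and mast cell markers measured, 2 fell, S100a9 and Ltf, while Csf3r and Mmp9, which were bright, differed by -0.00 and 0.15 (adjusted p = 0.995 for Csf3r and 0.402 for Mmp9). The summed intensity of that list was 266 to 311 in memory Th1 and 254 to 358 in memory Th2 samples. Of 12 myeloid markers only Lyz2 passed, and the sum was 267 to 439 in memory Th1 and 308 to 411 in memory Th2 samples. Ctsh, another of the 12, was called lower after median centring, by the plain ratio and from the series matrix values (adjusted p = 0.0477, 0.0282 and 0.0493). No marker of either list was at 0 in all samples of a group, S100a9 and Lyz2 being the dimmest in memory Th1 cells. Memory cells were flow-sorted, and in RNA of a bulk sample fewer cells of a type and less RNA per cell cannot be told apart. The part of other cells in these values was not tested.

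Of the other genes named by rule for their falls, all above the median reporter in at least 1 memory group, Eprs and Ubxn4 kept their call without each pair in turn. Eprs, the glutamyl-prolyl-tRNA synthetase, was at 3.46, 3.90 and 3.87 in memory Th1 and 4.60, 4.99 and 4.73 in memory Th2 samples. The groups were apart, with a difference of -1.03 ± 0.11 (adjusted p = 0.00641). The direction was opposite to that of Farsb, another aminoacyl-tRNA synthetase. Ubxn4, which takes part in the disposal of misfolded proteins from the endoplasmic reticulum, fell by 1.59, 1.07 and 1.64 in the 3 pairs (fitted -1.43 ± 0.17, adjusted p = 0.00791) although its groups overlapped. Maoa, monoamine oxidase A, fell by 1.33 ± 0.18 (adjusted p = 0.01) with no overlap, and its adjusted p was 0.0673 without pair 1. Igf2, a growth factor, fell by 1.03, with adjusted p = 0.0183 and 0.0602 without pair 1. Psen2, a gamma-secretase component, fell by 0.90, Sidt2, a lysosomal membrane protein, by 0.87, Gpx4, which reduces lipid hydroperoxides, by 0.86, and Spats2 by 0.76. The groups of Igf2, Sidt2 and Gpx4 overlapped, and those of Psen2 and Spats2 did not. Without pair 1 the adjusted p was 0.207 for Psen2, 0.162 for Sidt2, 0.099 for Gpx4 and 0.0865 for Spats2. Without pair 2 it was 0.136 for Psen2 and 0.109 for Sidt2, and without pair 3 it was 0.0904 for Gpx4.

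**Figure D3:**
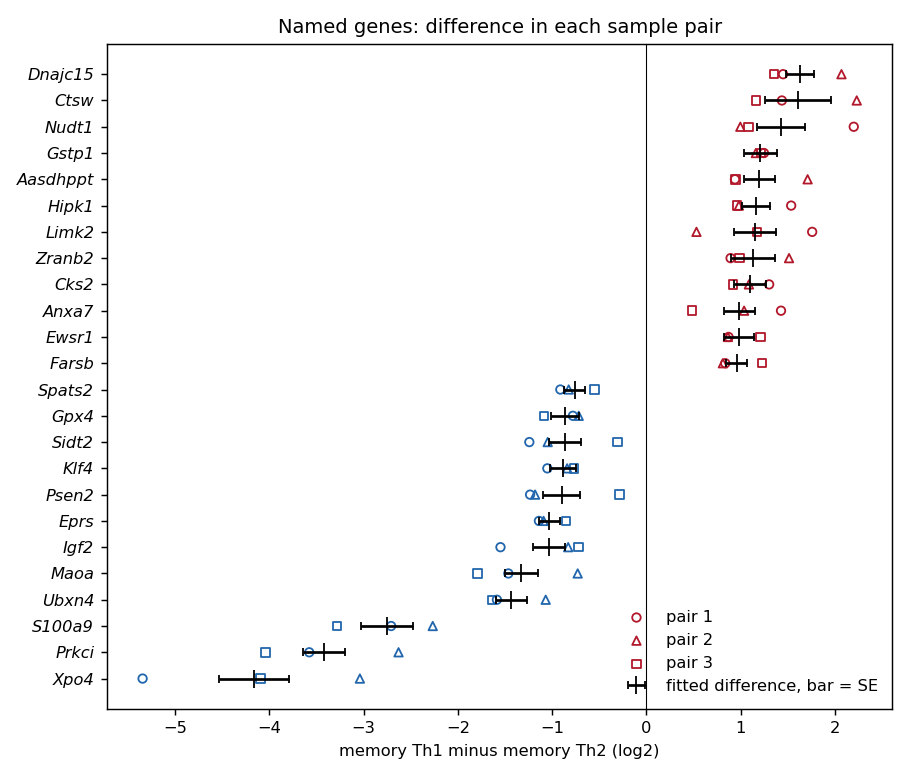
Memory Th1 minus memory Th2 difference (log2, horizontal axis) of the 24 genes named by rule, as an open symbol for each of the 3 sample pairs and a black mark with its SE for the fitted difference. Every gene has all 3 pairs on 1 side of 0, as the rule asked, and the pairs of Xpo4, at -5.34, -3.04 and -4.09, are the most spread in absolute terms.

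The calls among genes linked to the lineages themselves stand beside a share of 4.37% called over all 3230 genes. Of 8 Th1-associated genes measured, 1 was called and it was lower in memory Th1 cells. This was Irf1, a transcription factor induced by interferon, at 4.71, 5.15 and 4.89 in memory Th1 and 5.30, 5.52 and 5.31 in memory Th2 samples. The groups did not overlap, with a difference of -0.46 ± 0.08 (adjusted p = 0.0222), but Irf1 was not called without pair 1 (adjusted p = 0.115) or pair 3 (adjusted p = 0.067). The list's median difference was 0.10, against 0.03 over all genes, and it was -0.06 after median centring, where Irf1 was not called. Under median centring, the plain ratio and the series matrix values the 1 called member was instead Selplg, the ligand of P-selectin, higher in memory Th1 cells by 0.49, 0.57 and 0.46 (adjusted p = 0.0405, 0.0329 and 0.0295). Il12rb1, a chain of the interleukin 12 receptor, stood at 2.01, 2.15 and 2.29 in memory Th1 and 1.90, 2.01 and 2.10 in memory Th2 samples, and Tnf differed by 0.02 (adjusted p = 0.584 for Il12rb1 and 0.82 for Tnf). Of 7 Th2-associated genes 0 were called by limma under quantile normalisation, median centring, the plain ratio or the series matrix values. With quantile normalisation 1 had an unadjusted p under 0.05, against 843 of the 3230 genes, and none lay above the median reporter. Their median difference was -0.18, and all 7 were negative after median centring. Il13, a signature cytokine of Th2 cells, was at 1.57, 2.02 and 1.41 in memory Th1 and 1.72, 2.33 and 1.82 in memory Th2 samples. It was lower in memory Th1 cells in every pair, and the fitted difference was -0.29 ± 0.43 (adjusted p = 0.695). That SE comes from the spread pooled with the effector and rested pairs and does not measure the spread of the memory pairs alone. Ifngr2, the signalling chain of the interferon gamma receptor, was the only one of 18 cytokine and chemokine receptors to pass, lower in memory Th1 cells by 0.65 ± 0.10 (adjusted p = 0.0176, and 0.0998 without pair 1 and 0.0515 without pair 2). It was not called after median centring (-0.43, adjusted p = 0.104), by the plain ratio (-0.38, adjusted p = 0.145) or from the series matrix values (-0.33, adjusted p = 0.107). Its reporter lies beside that of S100a9, as described above. Of 7 Jak-Stat and cytokine signalling genes only Irf1 passed, and their median was -0.24. Smad4 of that list was called higher by the plain ratio (0.51, adjusted p = 0.0431) and from the series matrix values (0.45, adjusted p = 0.0445). Of 7 interferon-induced genes 0 passed by limma with quantile normalisation and 2 had an unadjusted p under 0.05. Ifitm3 was at 0.37 (adjusted p = 0.108) and Ly6e at 0.18 (adjusted p = 0.0949). Ly6e was called higher by the plain ratio (0.42, adjusted p = 0.0309) and from the series matrix values (0.37, adjusted p = 0.0392).

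Among 9 memory-associated genes, Lgals1 rose and Itgb2 and Gzma fell in memory Th1 cells, beside a share of 4.37% called over all 3230 genes. Lgals1, the carbohydrate-binding galectin 1, was bright, at 7.55, 7.74 and 7.51 in memory Th1 and 6.93, 6.95 and 7.11 in memory Th2 samples. The groups were apart and the difference was 0.60 ± 0.10 (adjusted p = 0.0187, with 0.099 without pair 1 and 0.0521 without pair 2). Itgb2, the beta chain shared by LFA-1 and other leukocyte integrins, was dim, at 0.59, 2.01 and 0.58 in memory Th1 and 2.42, 3.25 and 2.58 in memory Th2 samples. Its difference was -1.69 ± 0.19 (adjusted p = 0.00742), which held without each pair. The call was lost with the series matrix values (-0.64, adjusted p = 0.072) and with a pseudocount of 8 (-0.60, adjusted p = 0.15). An unnamed reporter 24 numbers away fell by 2.59 (adjusted p = 0.0082). The median difference of the list was 0.10. Of 9 cytotoxic genes, Ctsw rose and Gzma, the granule protease granzyme A, fell. Gzma stood at 1.42, 1.84 and 1.23 in memory Th1 and 1.81, 2.70 and 1.87 in memory Th2 samples, with overlapping groups and a difference of -0.63 ± 0.14 (adjusted p = 0.0475), and it lost its call without any 1 pair (adjusted p from 0.0945 to 0.135). The list's median was 0.12.

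Genes of naive and quiescent cells had mostly negative differences. Of 16 measured, 13 had a negative difference, against 1475 of all 3230 genes. In all 3 pairs 9 were lower, against 551 of all 3230 genes. The list's median was -0.19, but only Klf4 passed. Klf4, a transcription factor that restrains T cell proliferation in mice, was at 4.54, 3.46 and 4.70 in memory Th1 and 5.59, 4.30 and 5.46 in memory Th2 samples. Every pair differed by a similar amount while the groups overlapped, with -0.89 ± 0.14 (adjusted p = 0.0156, and 0.0945 without pair 1 and 0.0552 without pair 3). Satb1, a chromatin organiser, Foxo1, a transcription factor of quiescent T cells, and Btg1, an antiproliferative gene, had differences of -0.46, -0.34 and -0.39 (adjusted p = 0.0675 for Satb1, 0.0674 for Foxo1 and 0.0898 for Btg1). The summed intensity of the list was 838 to 955 in memory Th1 and 989 to 1119 in memory Th2 samples, which did not overlap. After median centring 10 of 16 were negative, and the median was -0.18. Members called higher and lower numbered 1 and 2 after median centring, 1 and 2 by the plain ratio, and 1 and 1 from the series matrix values. The 1 called higher was Btg2 each time, by 0.57, 0.65 and 0.50 (adjusted p = 0.0314, 0.0282 and 0.0262). Of 3 thymocyte markers 0 passed by limma with quantile normalisation and 2 had an unadjusted p under 0.05. All were lower in memory Th1 cells in every pair, with Cd24a at -0.72 (adjusted p = 0.0898). Cd24a was called lower after median centring (-0.85, adjusted p = 0.019) and by the plain ratio (-1.18, adjusted p = 0.0389).

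Genes of mitochondrial respiration had mostly positive differences. Of 37 genes of oxidative phosphorylation measured, all above the median reporter, 32 had a positive difference, against 1755 of all 3230 genes. In all 3 pairs 18 were higher in memory Th1 cells, against 926 of all 3230 genes. The median was 0.14. Only Ndufc2, a subunit of complex I, rose, by 0.35 ± 0.07 (adjusted p = 0.046), and Ndufa8, another subunit of complex I, fell by 0.42 ± 0.09 (adjusted p = 0.0409), and neither was called without any 1 pair (adjusted p up to 0.196 for Ndufc2 and 0.124 for Ndufa8). The summed intensity was 1897 to 2086 in memory Th1 and 1643 to 1908 in memory Th2 samples. Other scalings gave medians of 0.28 to 0.40 and 8 to 13 members called, all of them higher in memory Th1 cells, and Ndufa8 was not called there. Over all 3230 genes the same scalings called 220 to 298 higher and 90 to 127 lower in memory Th1 cells, and they put the median difference of the brightest quartile of reporters at 0.20 to 0.27. The direction of ribosomal protein genes depended on the scaling. Of 35 measured, 17 were positive after quantile normalisation, with a median of -0.01, and 34 were positive under each of 3 other scalings. Rpl29, of the large subunit, was called under quantile normalisation, at 10.52, 10.94 and 10.79 in memory Th1 and 10.01, 10.18 and 10.19 in memory Th2 samples. It rose by 0.62 ± 0.08 (adjusted p = 0.00874), without overlap, and the call held without each pair. Of 30 proteasome genes only Psma4, an alpha subunit of the core particle, rose, by 0.64 ± 0.11 (adjusted p = 0.0238, and 0.0674 to 0.108 without 1 pair), with a list median of 0.13. The other scalings called 7 to 9 proteasome genes higher and 0 lower. Of 24 chaperone genes only Dnajc15 rose, with a median of 0.03, and 4 were called higher under each of the other scalings. Hspa5 was called lower after median centring (-0.89, adjusted p = 0.0299) and Dnaja1 from the series matrix values (-0.27, adjusted p = 0.0328).

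**Figure D4:**
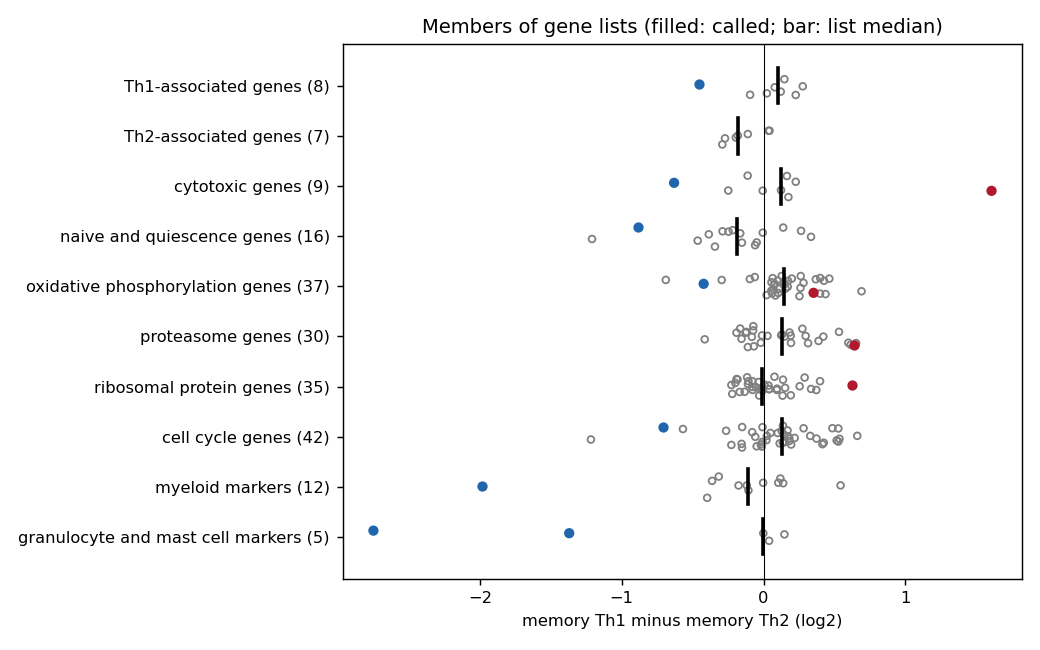
Memory Th1 minus memory Th2 differences (log2, horizontal axis) of the measured members of 10 gene lists, with the number of members in brackets, filled circles for called members and a black bar at each list's median. The medians lie between -0.19 for naive and quiescence genes and 0.14 for oxidative phosphorylation genes, and the far points at the left are S100a9, Lyz2 and Ltf.

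For activation, division and death genes, the share to compare with is the 4.37% called over all 3230 genes. Jun, a subunit of the AP-1 transcription factor, was at 5.19, 4.24 and 6.02 in memory Th1 and 4.50, 3.59 and 5.24 in memory Th2 samples. Each pair differed by nearly the same amount, 0.69, 0.65 and 0.78, while the groups overlapped, and the difference was 0.71 ± 0.11 (adjusted p = 0.0187, and 0.0939 without pair 1 and 0.0788 without pair 3). It was the only 1 of 10 activation genes and of 11 T cell receptor signalling genes to pass with quantile normalisation. Fos, its partner, was at -0.40 (adjusted p = 0.241). Nfatc3, of the receptor signalling list, was called higher after median centring, by the plain ratio and from the series matrix values (adjusted p = 0.0478, 0.0264 and 0.0295). Ifrd1 had a difference of -0.56, without overlap of the groups, and missed the threshold (adjusted p = 0.127). Of 42 cell cycle genes only Ccne1, the cyclin E1 that drives entry into DNA synthesis, passed, lower in memory Th1 cells by 0.71 ± 0.11 (adjusted p = 0.0156, and 0.0584 without pair 3), and the list's median was 0.13. Members called higher and lower numbered 3 and 2 after median centring, 5 and 1 by the plain ratio, and 3 and 1 from the series matrix values. Pcna, a sliding clamp of DNA replication, differed by -1.22 with an adjusted p of 0.08, and it was called after median centring (-1.24, adjusted p = 0.0373). Among the 16 genes of cell death, Casp9, the initiator caspase of the mitochondrial pathway, fell by 0.82 ± 0.13 (adjusted p = 0.0177) and Casp12 by 0.55 ± 0.10 (adjusted p = 0.0239). Without pair 1 the adjusted p was 0.1 for Casp9 and 0.0752 for Casp12, and without pair 3 it was 0.0788 for Casp9 and 0.0584 for Casp12. Median centring, the plain ratio and the series matrix values each called 1 gene of this list higher and 2 lower. The 1 called higher was Bnip3l (adjusted p = 0.0224, 0.0234 and 0.0204). Rhoh, a GTPase of blood cells needed for T cell receptor signalling in mice, was the 1 gene of 23 of adhesion and migration that rose, by 0.67 ± 0.14 (adjusted p = 0.0415, with 0.44 and adjusted p = 0.0998 without pair 1, and adjusted p = 0.0848 without pair 3), and Itgb2 was the 1 that fell. Other scalings called 4 to 6 genes of that list higher and 1 to 2 lower. Of 11 glycolysis genes 0 passed by limma and 3 had an unadjusted p under 0.05, against 843 of all 3230 genes, with a median of 0.04. Under the other scalings 2 to 3 were called, all higher in memory Th1 cells, among them Aldoa and Hk1. With quantile normalisation 0 members passed by limma among 12 stromal, 5 erythroid and platelet, 3 antigen presentation and 2 B cell genes. Of these, 1 stromal and 1 erythroid or platelet gene had an unadjusted p under 0.05. Alas2, of the erythroid and platelet list, was called lower after median centring (-0.82, adjusted p = 0.0373) and by the plain ratio (-1.12, adjusted p = 0.0437). Of 4 CD8 T and NK cell markers only Gzma passed.

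H3f3b and Sugt1, bright genes outside the lists, differed by less than 1 on the log2 scale with little spread. H3f3b, which encodes a replacement form of histone H3, was at 7.28, 7.09 and 7.28 in memory Th1 and 8.06, 7.84 and 7.99 in memory Th2 samples. The spread within each group was far below the difference of -0.75 ± 0.08 (adjusted p = 0.00518). Sugt1, a cochaperone of HSP90, was at 6.99, 6.62 and 6.75 in memory Th1 and 6.18, 6.02 and 6.13 in memory Th2 samples, a difference of 0.68 ± 0.06 (adjusted p = 0.00293). Both were named after their values were seen, and both were called without each pair in turn and in 12 of 15 alternatives.

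The memory difference was then set against the Th1 to Th2 difference in effector and rested cells, which share no sample with it, though same-numbered samples of all groups share a spot pattern. In the same fit 84 reporters (1.68%) differed between effector Th1 and Th2 cells and 915 (18.3%) between rested Th1 and Th2 cells. Of the 189 memory calls, 10 were called in effector cells in the same direction, which is 5.29% of the memory calls and 11.9% of the effector calls, and 3 in the opposite direction. With rested cells the memory calls shared 30 in the same direction, 15.9% of the memory calls and 3.28% of the rested calls, and 38 in the opposite direction. The genes called in the same direction in memory and effector cells were Dusp10, Gzma, Jun, Rhoh, Sugt1 and Trim30d, and those in the opposite direction were Lgals1 and H2az1. Trim30d, of the tripartite motif family, was higher in Th1 cells by 1.02 in effector, 0.82 in rested and 0.59 in memory cells (adjusted p = 0.00648 in memory), and its reporter lies beside that of Xpo4. The Dnajc15 difference was 0.70 in effector, 1.03 in rested and 1.62 in memory cells (adjusted p = 0.077, 0.0037 and 0.00287 in that order). Its memory difference was not called larger than that in effector cells (0.92 ± 0.21, adjusted p = 0.0768) or in rested cells (0.60 ± 0.21, adjusted p = 0.0997).

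A test of the difference between differences called 92 reporters (1.84%) for memory against effector cells and 797 (16%) for memory against rested cells. The genes furthest apart between memory and effector cells were of 2 kinds. Gzma, Myo6, Ifitm3 and Prnp differed strongly between effector Th1 and Th2 cells and little in memory cells. Ifitm3, an interferon-induced antiviral membrane protein, differed by 0.37 in memory cells, which did not pass, and by 3.50 in effector cells, a change of -3.13 ± 0.16 (adjusted p = 0.000198). Its level was 1.89, 2.20 and 3.03 in memory Th1 cells and 8.15, 8.11 and 7.98 in effector Th1 cells. Prnp, the prion protein, differed by 0.09 in memory and 3.01 in effector cells (change -2.92 ± 0.32, adjusted p = 0.00633). Myo6, an unconventional myosin, differed by -0.33 in memory cells, which did not pass (adjusted p = 0.137), and by -3.68 in effector cells (change 3.35 ± 0.17, adjusted p = 0.000198). Gzma differed by -0.63 in memory and -3.70 in effector cells (change 3.06 ± 0.19, adjusted p = 0.000484). Xpo4 and Prkci were of the other kind. Xpo4 differed by -4.16 in memory and 0.03 in effector cells (change -4.19 ± 0.53, adjusted p = 0.00886), and Prkci by -3.41 in memory and 0.61 in effector cells (change -4.03 ± 0.31, adjusted p = 0.00101). Neither was called in effector cells.

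Against rested cells the direction was turned for several genes. Xpo4 differed by -4.16 in memory cells and by 1.52 in rested cells (adjusted p = 0.026 in rested cells), a change of -5.67 ± 0.53 (adjusted p = 0.00171). Itgb2 was -1.69 in memory and 1.83 in rested cells (change -3.52 ± 0.28, adjusted p = 0.00126). In rested Th1 samples it had been at 6.83, 4.21 and 4.01, above the memory samples of either lineage. Blzf1, a protein of the Golgi apparatus, was at -1.08 in memory and 2.14 in rested cells (change -3.22 ± 0.28, adjusted p = 0.00168), and Arhgap6 was at -0.58 in memory and 2.22 in rested cells (change -2.80 ± 0.14, adjusted p = 0.00027). For these 4 genes rested sample 1 of each lineage was the brightest of its 3. Prkci differed by -3.41 in memory and -0.06 in rested cells, and S100a9 by -2.75 in memory and -0.11 in rested cells. The changes were -3.36 ± 0.31 for Prkci (adjusted p = 0.00171) and -2.64 ± 0.39 for S100a9 (adjusted p = 0.00631).

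**Figure D5:**
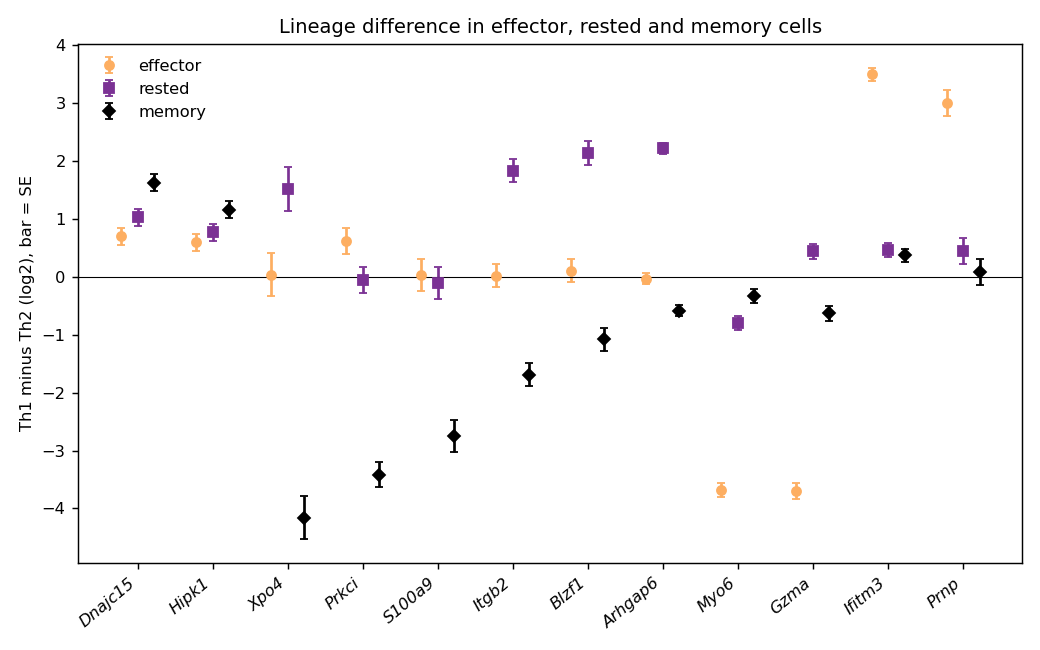
Th1 minus Th2 difference (log2, vertical axis, bars are SE) of 12 genes in effector, rested and memory cells. Xpo4, Prkci and S100a9 lie between -4.16 and -2.75 at the memory stage, and Myo6, Gzma, Ifitm3 and Prnp lie 3.01 or more from 0 at the effector stage.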

How the data were processed

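RNA of 6 memory samples was compared within a fit of 18 samples (9 Th1 and Th2 pairs of effector, rested and memory cells). The deposited values are spot intensities on a linear scale. Per the labels, total RNA (5 to 15 µg) of cryopreserved cells was labelled with 33P. The sources used here do not name the image reader, background correction, normalisation or software, and 0 columns of per-sample values were left unused. A deposited series matrix served as an alternative.

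All 42 arrays were quantile-normalised, 1 was added, log2 was taken, and spots of a reporter, then arrays a and b, were averaged. A linear model with each pair as a block was fitted with limma 3.58.1 in R 4.3.3 (6 residual degrees of freedom), with Benjamini-Hochberg adjustment over 4992 reporters and a threshold of 0.05. Every adjusted p is from limma. The pairing follows the sample number in the titles. Deviations of same-numbered samples correlated at 0.806 to 0.818, which is no separate evidence for the pairing, since such samples share a spot pattern.

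Probe annotation named 1 gene for 3626 reporters and several for 172, and 1194 are unnamed here. Symbols were updated through a RefSeq table of GRCm38.p6, which held 3605 of the 3626. By rule, the 12 largest rises and falls were named among called genes whose mean lay above the median reporter in at least 1 memory group, with all 3 pairs in 1 direction, 6 for each test between stages, and any member of 27 gene lists. The samples and lists were chosen with earlier results of these data known. Summed levels of lists are linear quantile-normalised intensities.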

Additional observations from a re-analysis of the deposited data

Results flagged for a closer look

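The Th1 to Th2 difference was another one in memory cells than at earlier stages for 92 reporters against effector cells and 797 against rested cells, by the limma test of the difference between differences. Against effector cells the change was -4.19 for Xpo4, -4.03 for Prkci, 3.35 for Myo6, -3.13 for Ifitm3, 3.06 for Gzma and -2.92 for Prnp. Against rested cells it was -5.67 for Xpo4, -3.52 for Itgb2, -3.36 for Prkci, -3.22 for Blzf1, -2.80 for Arhgap6 and -2.64 for S100a9. No group holds over 3 samples, so single samples were not tested for standing apart.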

How the results depend on the processing

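The count of 189 calls between memory Th1 and memory Th2 cells came to 10 with no replicate block over 7 groups, and to 0 on the memory samples alone, with the replicate block (901 at unadjusted p under 0.05) and without it (92). It was 478 after median centring, 483 from the series matrix values and 683 with an intensity trend and robust prior, and 53 to 247 without 1 pair. Of alternatives chosen after seeing the data, the direct log2 ratio gave 522 and weights by stage 76. Memory against effector cells, 92 calls, had 8 without the block, 150 from the series matrix, 158 by the direct log2 ratio, and 43 to 160 without 1 memory pair. Memory against rested cells, 797 calls, had 3 without the block, 357 with weights by stage, and 445 to 644 without 1 memory pair. Single effector or rested pairs were not left out, so the dependence on them was not tested. The cause of these shifts was not tested. A pseudocount of 8 and the filter on dim reporters kept all 3 counts within 1.5 times, as did arrays a and b, which share 1 ratio and so are no separate test. Of the 44 memory results of named and called genes, 41 stayed called after median centring, 36 from the series matrix values, 7 with no replicate block over 7 groups and 0 on memory samples alone. Without a background measure, the signal of an empty spot is unknown, and differences of dim reporters depend on the pseudocount.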

Other observations

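Unnamed reporters held some of the largest differences between the memory lineages. Of the 189 called reporters, 32 are unnamed here. Reporter 4545 was at 3.69, 2.56 and 3.74 in memory Th1 and 8.84, 6.67 and 7.73 in memory Th2 samples, a difference of -4.41 ± 0.24 (limma, adjusted p = 0.000274), larger than that of Xpo4. Reporters 1221, 4554 and 990 fell in memory Th1 cells by 2.73, 2.59 and 2.18 (adjusted p = 0.0141, 0.0082 and 0.00874).

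In naive cells, the starting population, S100a9 was at 5.23, 4.99 and 5.69, above all memory Th1 and Th2 samples. Prkci was at 5.14, 4.51 and 5.51 in naive samples, above the 3 memory Th1 samples and overlapping the memory Th2 samples. Xpo4 was at 4.70, 4.30 and 4.13 in naive samples, above the 3 memory Th1 samples and below the 3 memory Th2 samples. Dnajc15 was at 3.79, 3.49 and 3.70 in naive samples, below every memory Th1 sample, with memory Th2 samples between 3.71 and 4.40. Gzma stood at 6.76, 6.32 and 6.48 in naive samples and below 3 in each memory sample. Differences from naive cells were not tested.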
